A study of Mus musculus with 8 samples.

Results

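Insulin signalling and glucose uptake in fat were followed through 8 genes: Insr, Irs1, Irs2, Pik3r1, Akt2, Slc2a4, Slc2a1 and Hk2. They were taken by name, with every probe set that the array's annotation lists for that gene symbol alone, which gave 18 probe sets of 8 genes out of 34945 probe sets of 18193 genes in the whole table. A probe set is a group of short probes on the array that together read 1 transcript or several related ones. The tissue was epididymal white adipose tissue, the visceral fat pad beside the testis, measured with 1 array for each of 8 mice. The LPA4-KO group held 4 males whose X-linked Lpar4 gene, which encodes a receptor for lysophosphatidic acid, is deficient (Lpar4 -/Y), and the WT group held 4 males with wild-type Lpar4. All 8 were C57BL/6 littermates, 12 weeks old, on standard chow. The labels name no tissue-specific driver, and the deleted part of Lpar4 is not named in these sources. The question was whether the genes through which insulin acts on fat cells differ in level when the receptor is deficient.

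In fat cells insulin binds its receptor at the surface, and the receptor phosphorylates adaptor proteins called insulin receptor substrates. These recruit phosphoinositide 3-kinase, whose lipid product activates the kinase AKT. AKT then releases storage vesicles that carry the glucose transporter GLUT4, the product of Slc2a4, to the cell surface, where glucose enters and is phosphorylated by hexokinase. Most of this control acts on proteins already present, so the transcript level of a member is only 1 part of the pathway's activity.

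Values are log2 levels as deposited. A group mean is followed by its SD over 4 mice, and a difference (LPA4-KO minus WT) by its SE from limma, a linear model fitted to all probe sets at once. A probe set was called when its Benjamini-Hochberg adjusted p was under 0.05. Of 45037 probe sets tested, LPA4-KO fat had 196 called higher and 105 called lower, and quantile normalization moved this split to 24945 higher and 1330 lower. For 83.2% of probe sets the 8 arrays lay within 0.1 log2 of each other. These are named nearly constant here, and the other 7584 varying. A fit of the varying probe sets alone called 617 higher and 800 lower, which became 868 and 514 after quantile normalization and 793 and 634 after median centring. The mean correlation of an array with the others of its group ran from 0.973 in WT replicate 1 to 0.988, and the median of its varying probe sets was 8.38 in WT replicate 1 and 8.30 to 8.32 in the others. Lpar4 itself was lower in LPA4-KO mice at probe set 1452424_at, with 5.80 ± 0.05 against 6.52 ± 0.03 (adjusted p = 0.0040), while 1434186_at (0.68 ± 0.24, adjusted p = 0.24) and 1439665_at (0.48 ± 0.25, adjusted p = 0.41) had higher means in LPA4-KO mice. The place of these probe sets relative to the deleted part is not known here. In whole tissue, fewer cells of a type and less RNA per cell cannot be told apart.

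Pik3r1, which encodes a regulatory subunit of phosphoinositide 3-kinase, and Slc2a4 held the 5 largest differences of the 18 probe sets, and over all 6 of their probe sets the means were 1.33-fold to 1.74-fold higher in LPA4-KO fat. Slc2a1, Irs1 and Hk2 had differences of 1.22-fold to 1.33-fold in the same direction, the means of Irs2 were nearly equal, and Insr and the 3 probe sets of Akt2 had slightly lower means in LPA4-KO fat. None of these differences was called over the whole table. Limma called 0 of 18 member probe sets, where 0.668% of all probe sets were called, 0.435% of them higher and 0.233% lower. After quantile normalization 12 member probe sets were called higher and 1 lower, in a fit that called 26275 probe sets of the table. The smallest adjusted p among members was 0.16, at Slc2a4 probe set 1415958_at. At an unadjusted p under 0.05 there were 10 member probe sets, 9 with a higher and 1 with a lower mean in LPA4-KO mice, and all 10 varied. The same share in the table was 39.2% of varying probe sets and 16.1% of all.

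All 8 genes had at least 1 varying probe set, and 15 of 18 probe sets varied. A probe set with a larger difference between genotypes passes that limit more easily, so the counts that follow describe these 15 and give no support to a shift of the pathway. Of the 15, 11 had positive and 4 negative differences, with a median of 0.33 log2. Over all varying probe sets 42.7% were positive and the median was -0.06 log2. The 11 and 4 were the same after quantile normalization and after median centring. The 4 negative values were those of Insr and Akt2, and whether members differed from each other was not tested.

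With the varying probe sets fitted alone, 5 member probe sets were called higher and 0 lower, both of Slc2a4 and 3 of 4 of Pik3r1. In that fit 18.7% of probe sets were called, 8.14% higher and 10.5% lower. With 1 array fewer the count of calls was lower in most fits. The 5 became 0 without LPA4-KO replicate 1, without LPA4-KO replicate 2, without WT replicate 2 or without WT replicate 3. They became 3, 1 and 2 without LPA4-KO replicate 3, LPA4-KO replicate 4 and WT replicate 4, and without WT replicate 1 there were again 5, with Pik3r1 1451737_at in place of Slc2a4 1415959_at. In the 4 fits with 0 calls the differences at the 5 probe sets ran from 0.38 to 0.74, against 0.49 to 0.80 with all arrays. The count of all varying probe sets called higher also fell in those fits, from 617 to 234, 260, 426 and 276 in the order named, so the part of single arrays and that of fewer mice cannot be told apart.

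**Figure D1:**
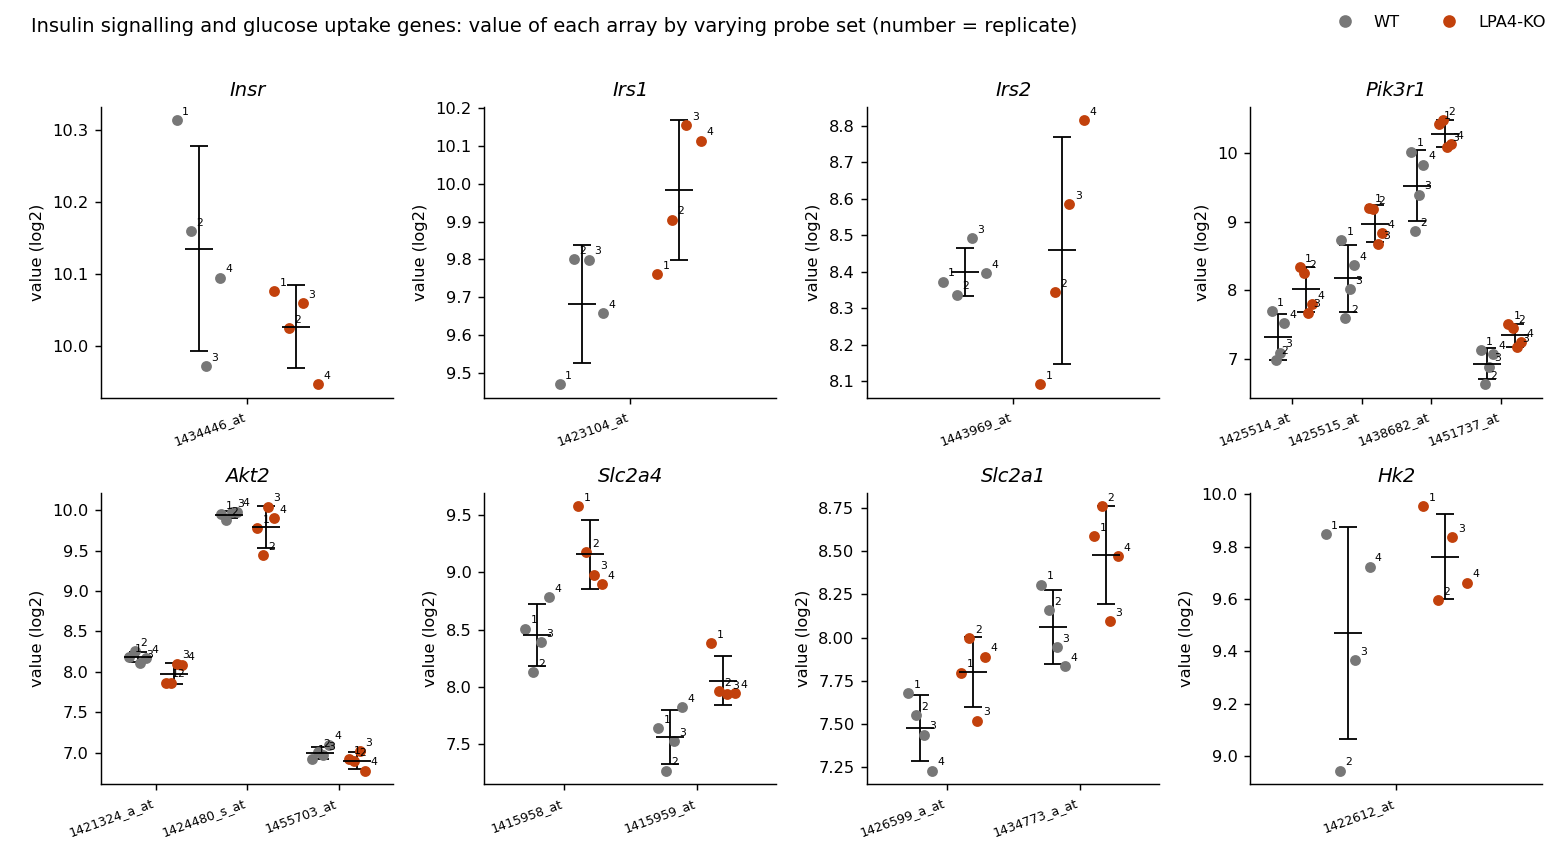
Value of each array (points, with the replicate number) for the 15 varying probe sets of the 8 genes, with the group mean and SD as horizontal bars and whiskers; the vertical axis of each panel is in log2 and has its own range. WT replicate 2 was the lowest array at every probe set of Pik3r1 and Slc2a4 and at Hk2, and the groups did not overlap at 5 of the 15 probe sets.

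The insulin receptor gene Insr was read by 1 varying probe set and 2 nearly constant ones. At 1434446_at the LPA4-KO mice stood at 10.08, 10.02, 10.06 and 9.95 and the WT mice at 10.31, 10.16, 9.97 and 10.09, in the order of replicates 1 to 4. The groups overlapped, with the highest value in WT replicate 1 and the lowest in LPA4-KO replicate 4. The difference was -0.11 ± 0.07 (adjusted p = 0.54), with a 95% confidence interval from -0.29 to 0.07. It was -0.049 without WT replicate 1 and -0.16 without WT replicate 3. At 1421380_at and 1450225_at the mean was near 6.43 and 6.29 in both groups and the 8 arrays spanned at most 0.0011 log2, so these probe sets carry no information on the comparison.

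The adaptor genes Irs1 and Irs2 were read by 1 probe set each. For Irs1 the LPA4-KO arrays were at 9.76, 9.91, 10.16 and 10.11 and the WT arrays at 9.47, 9.80, 9.80 and 9.66. Replicates 2, 3 and 4 of LPA4-KO were above every WT array, and LPA4-KO replicate 1 was below 2 of them, so the groups overlapped. The Irs1 difference was 0.30 ± 0.12, or 1.23-fold (adjusted p = 0.28, exact permutation p = 0.086, two-sided). With 4 arrays against 4, this exact test over 70 arrangements cannot give less than 0.0286.

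Irs2 had nearly equal means, 8.46 ± 0.31 in LPA4-KO and 8.40 ± 0.07 in WT fat, but a wider spread among the LPA4-KO mice. Their values were 8.09, 8.34, 8.58 and 8.82, while the WT mice lay between 8.34 and 8.49. The lowest and the highest of all 8 arrays were both LPA4-KO. The difference of 0.060 ± 0.15 (adjusted p = 0.91, 95% confidence interval from -0.31 to 0.43) became -0.059 without LPA4-KO replicate 4 and 0.18 without LPA4-KO replicate 1.

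The promoters of both adaptor genes are shown because the genes are close relatives and their start regions share a motif. Promoter sequences are those of RefSeq on build GRCm38.p6, 250 bases before each annotated start on the gene's own strand, and 6 of the 8 genes had a match, with 10 windows. No window was matched for Insr and Slc2a4. Capitals mark the E-box CACGTG and the GC box GGGCGG, searched on both strands, so that a GC box on the other strand reads CCGCCC, while the E-box reads the same on both. The Irs1 window lies at chr1:82291440-82291689 and the Irs2 window at chr8:11008930-11009179, both on the minus strand.
Irs1: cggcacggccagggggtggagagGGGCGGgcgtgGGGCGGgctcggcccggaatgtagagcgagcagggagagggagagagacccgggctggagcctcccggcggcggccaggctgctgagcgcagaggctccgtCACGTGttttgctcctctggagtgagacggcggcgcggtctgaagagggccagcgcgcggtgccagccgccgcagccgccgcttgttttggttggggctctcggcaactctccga
Irs2: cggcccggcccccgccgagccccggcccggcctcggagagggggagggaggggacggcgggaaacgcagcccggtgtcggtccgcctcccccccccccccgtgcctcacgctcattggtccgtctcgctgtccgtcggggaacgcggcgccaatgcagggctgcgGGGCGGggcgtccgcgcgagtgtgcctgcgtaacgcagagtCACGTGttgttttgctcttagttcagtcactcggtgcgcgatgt
Each window holds 1 E-box, 115 bases before the start in Irs1 and 44 in Irs2, and these were the only 2 of the 10 member windows with one. An E-box stands in 6.0% of all 32851 windows of this length. On that strand the windows share 2 runs of 10 bases and none longer. One, gtCACGTGtt, lies around the E-box and is found in 23 of all windows (0.07%), and the other, tgttttgctc, holds no whole E-box and is found in 21 (0.0639%). The runs overlap each other in both windows. They were picked from these windows, which are also counted in the shares, so the shares do not test whether the runs are rare. These matches describe letters and not binding.

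Pik3r1 was read by 4 probe sets, all of them varying. At 1438682_at, with the highest mean, the LPA4-KO arrays stood at 10.42, 10.48, 10.09 and 10.13 and the WT arrays at 10.02, 8.87, 9.39 and 9.83. The groups did not overlap, although LPA4-KO replicate 3 was just above WT replicate 1. The difference was 0.75 ± 0.26, or 1.69-fold, with an adjusted p of 0.24 over all probe sets, an adjusted p of 0.047 among varying probe sets only, and an exact permutation p of 0.0286. The WT mice spread more widely than the LPA4-KO mice here, with an SD of 0.51 against 0.20.

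The other Pik3r1 probe sets gave similar profiles, with WT replicate 2 lowest in each. At 1425515_at the values were 9.20, 9.19, 8.67 and 8.83 in LPA4-KO and 8.73, 7.59, 8.01 and 8.37 in WT mice, a difference of 0.80 ± 0.27 (1.74-fold, adjusted p = 0.22). At 1425514_at they were 8.33, 8.25, 7.68 and 7.80 against 7.69, 6.99, 7.09 and 7.52, a difference of 0.69 ± 0.23 (1.61-fold, adjusted p = 0.22). In both, WT replicate 1 reached into the LPA4-KO range, so the groups overlapped, and the exact permutation p was 0.057. At 1451737_at the values were 7.51, 7.45, 7.17 and 7.24 against 7.13, 6.63, 6.89 and 7.07. The groups did not overlap, the difference was 0.41 ± 0.13 (1.33-fold, adjusted p = 0.21), and among varying probe sets only the adjusted p was 0.051. Over the 8 arrays the 4 probe sets correlated with each other at r from 0.948 to 0.989, so they repeat 1 measurement and are not 4 separate ones.

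RefSeq gives Pik3r1 more than 1 start, and 2 windows matched. The upstream one, at chr13:101768218-101768467 on the minus strand, is shown because this gene had the largest difference among members.
Pik3r1: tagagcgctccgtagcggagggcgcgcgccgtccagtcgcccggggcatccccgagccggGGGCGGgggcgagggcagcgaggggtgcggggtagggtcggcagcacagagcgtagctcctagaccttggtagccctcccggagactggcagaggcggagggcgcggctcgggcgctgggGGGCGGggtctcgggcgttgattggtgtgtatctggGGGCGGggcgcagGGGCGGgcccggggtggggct
It holds 4 GC boxes and no E-box. The other Pik3r1 window, at chr13:101692631-101692880, holds neither motif. The share of all windows with at least 1 GC box is 32.7%. Among members, 6 of 10 windows held one, 1 window for each of the 6 genes. The nuclear receptor motif AGGTCA and the FOXO motif GTAAACA, searched the same way and present in 14.0% and 3.2% of all windows, were in 0 of the 10, which says only that these letters are not in these windows.

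Akt2 encodes the AKT isoform most tied to glucose uptake in fat, and its 3 probe sets had negative differences. At 1421324_a_at the LPA4-KO mice were at 7.87, 7.87, 8.10 and 8.08 and the WT mice at 8.19, 8.26, 8.11 and 8.17. The groups did not overlap, by a margin of less than the SD of either group, between LPA4-KO replicate 3 and WT replicate 3. The difference was -0.20 ± 0.07, a 1.15-fold lower level (adjusted p = 0.24, and 0.11 among varying probe sets only; exact permutation p = 0.0286).

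At 1424480_s_at the Akt2 arrays were at 9.78, 9.44, 10.04 and 9.90 in LPA4-KO and between 9.88 and 9.98 in WT mice. LPA4-KO replicate 2 was the lowest array and LPA4-KO replicate 3 the highest, so the groups overlapped (-0.16 ± 0.13, adjusted p = 0.61). The difference was -0.040 without LPA4-KO replicate 2 and -0.24 without LPA4-KO replicate 3. At 1455703_at the values were 6.92, 6.90, 7.02 and 6.78 against 6.93, 7.01, 6.97 and 7.10. The groups overlapped, and the difference was -0.10 ± 0.06 (adjusted p = 0.49), with a 95% confidence interval from -0.24 to 0.05 and a value of -0.056 without LPA4-KO replicate 4. Over all alternatives the difference at 1455703_at ran from -0.14 to -0.000265, so its negative sign can rest on almost no difference. The correlation between 1421324_a_at and the other Akt2 probe sets was 0.73 and 0.43 over the 8 arrays, lower than among the probe sets of Pik3r1 or Slc2a4.

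Slc2a4, the gene of the insulin-responsive transporter GLUT4, had the smallest p of the members. At 1415958_at the LPA4-KO arrays stood at 9.57, 9.18, 8.98 and 8.90 and the WT arrays at 8.51, 8.13, 8.39 and 8.78. Every LPA4-KO array was above every WT array, with the smallest gap between LPA4-KO replicate 4 and WT replicate 4. The means were 9.16 ± 0.30 and 8.45 ± 0.27, a difference of 0.70 ± 0.20 or 1.63-fold, with a 95% confidence interval from 0.23 to 1.17. The adjusted p was 0.16 over all probe sets and 0.027 among varying probe sets only, and the exact permutation p was 0.0286.

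The second Slc2a4 probe set, 1415959_at, gave 8.38, 7.96, 7.94 and 7.94 in LPA4-KO and 7.64, 7.27, 7.53 and 7.82 in WT mice. Again the groups did not overlap, and LPA4-KO replicate 1 stood apart above the other LPA4-KO arrays, which lay within 0.03 of each other. The difference was 0.49 ± 0.15 (1.40-fold, adjusted p = 0.20, and 0.041 among varying probe sets only). Both Slc2a4 probe sets correlated at r = 0.98 over the arrays. Without LPA4-KO replicate 1 the difference at 1415958_at was 0.56 and without WT replicate 4 it was 0.81, the lowest and the highest over all alternatives.

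Slc2a1 encodes GLUT1, the transporter that supplies glucose without insulin in many cells, including endothelial cells and macrophages. At 1434773_a_at the LPA4-KO arrays were at 8.59, 8.76, 8.09 and 8.47 and the WT arrays at 8.31, 8.16, 7.94 and 7.83. LPA4-KO replicate 3 fell inside the WT range and the other LPA4-KO arrays lay above it. The difference was 0.42 ± 0.17 (1.33-fold, adjusted p = 0.30, exact permutation p = 0.086). At 1426599_a_at the values were 7.80, 7.996, 7.52 and 7.89 against 7.68, 7.55, 7.44 and 7.23. LPA4-KO replicate 3 again lay inside the WT range. The difference was 0.33 ± 0.13 (1.25-fold, adjusted p = 0.31, exact permutation p = 0.086), with a correlation of 0.97 between the pair. The third probe set, 1426600_at, was nearly constant and spanned 0.0013 log2.

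The Slc2a1 window, at chr4:119108495-119108744 on the plus strand, is shown beside that of Pik3r1 because both genes had higher means in LPA4-KO fat and GC boxes near the start. All 6 member genes with a window had a GC box, among them Akt2 with lower means, so this motif does not set these genes apart.
Slc2a1: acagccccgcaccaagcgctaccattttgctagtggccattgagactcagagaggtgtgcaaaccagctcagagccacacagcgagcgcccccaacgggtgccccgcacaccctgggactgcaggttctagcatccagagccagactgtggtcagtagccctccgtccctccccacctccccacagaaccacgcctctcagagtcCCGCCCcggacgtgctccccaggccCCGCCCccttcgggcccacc
It holds 2 GC boxes, 45 and 20 bases before the start, where the nearest in Pik3r1 was 21 bases before its own.

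Hk2, the insulin-regulated hexokinase that traps glucose in the cell, had a wide spread in WT mice. The LPA4-KO arrays were at 9.95, 9.60, 9.84 and 9.66 and the WT arrays at 9.85, 8.95, 9.37 and 9.72. WT replicates 2 and 3 were below every LPA4-KO array, and WT replicates 1 and 4 lay within the LPA4-KO range. The difference of 0.29 ± 0.21 (1.22-fold, adjusted p = 0.56) had a 95% confidence interval from -0.21 to 0.80, and without WT replicate 2 it was 0.12.

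**Figure D2:**
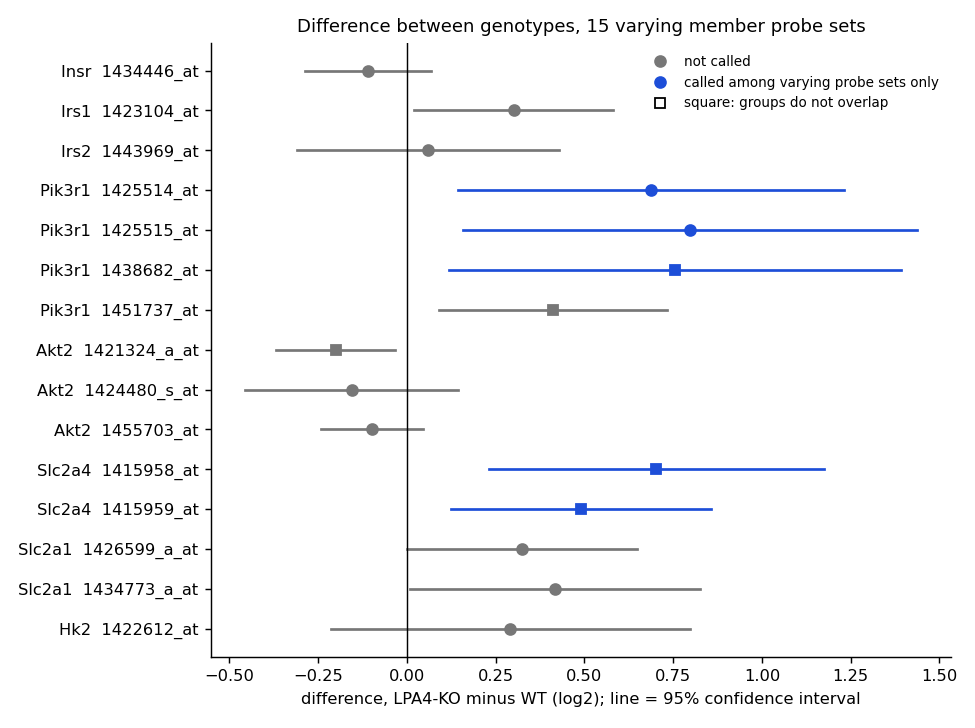
Difference between LPA4-KO and WT fat (log2, horizontal axis) for the 15 varying probe sets, with 95% confidence intervals from limma over all probe sets; blue marks probe sets called among varying probe sets only and squares mark groups that did not overlap. The 6 probe sets of Pik3r1 and Slc2a4 lie between 0.41 and 0.80, while those of Insr and Akt2 lie between -0.20 and -0.10.

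In all, the groups did not overlap at 5 of the 15 varying member probe sets, 4 with higher and 1 with lower values in LPA4-KO mice. Over all varying probe sets the groups did not overlap at 28.4%, with 12.6% higher and 15.9% lower.

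Pik3r1 and Slc2a4 followed each other across mice as well as between genotypes. Over the 8 arrays 1438682_at and 1415958_at correlated at r = 0.89 (Spearman's rho 0.93), and after the group means were taken away at r = 0.72. Hk2 followed both, with r = 0.86 against Pik3r1 and 0.74 against Slc2a4, and 0.86 and 0.70 after the group means were taken away. By rank Hk2 followed them less closely, with Spearman's rho of 0.48 and 0.60 over all arrays. Slc2a1 (1434773_a_at) correlated with Slc2a4 at 0.60 over all arrays and at 0.08 after the group means were taken away. Irs1 ran the other way within genotypes, with r = -0.76 against Slc2a4 and -0.76 against Pik3r1 after the group means were taken away, although its mean was also higher in LPA4-KO fat. Akt2 probe set 1421324_a_at had r = -0.88 against Slc2a4 over all arrays, and -0.69 after the group means were taken away. For 1424480_s_at these were -0.44 and -0.17, for 1455703_at -0.30 and 0.30, and for Insr (1434446_at) -0.31 and 0.18. These correlations describe 8 arrays that share 1 normalization, and genotype enters those over all arrays.

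**Figure D3:**
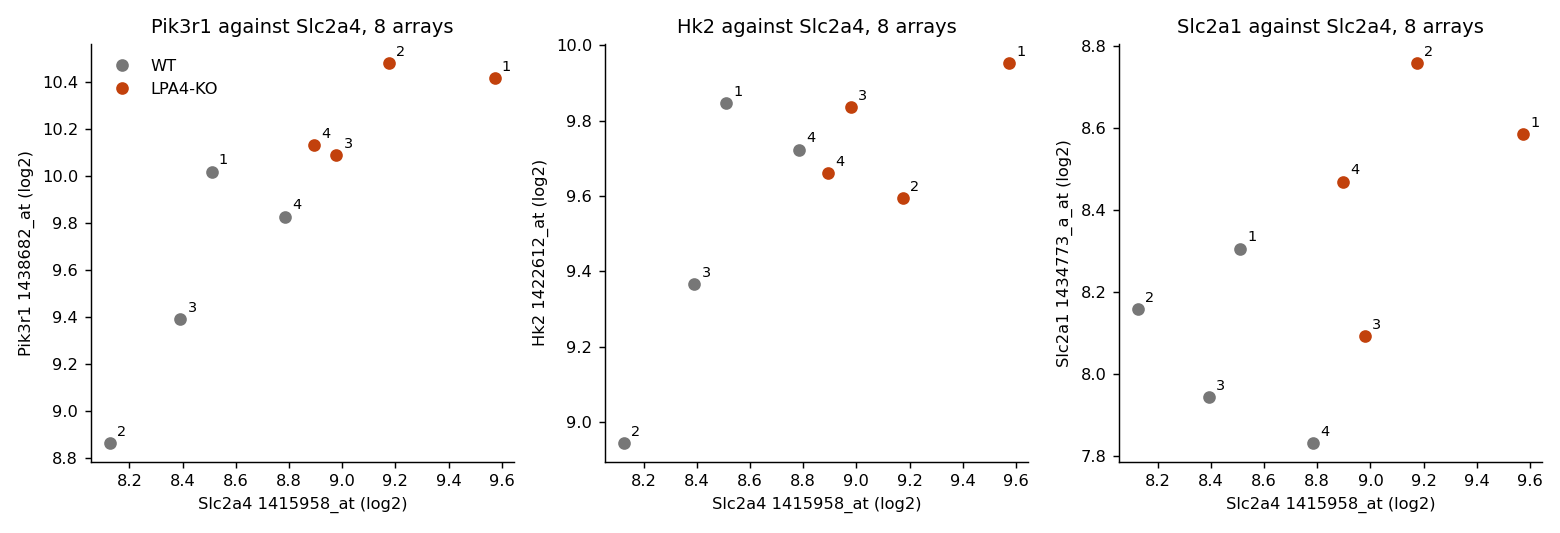
Pik3r1, Hk2 and Slc2a1 (vertical axes, log2) against Slc2a4 probe set 1415958_at (horizontal axis, log2) in the 8 arrays, each labelled by its replicate number. Over all arrays r was 0.89 for Pik3r1, 0.74 for Hk2 and 0.60 for Slc2a1, and after the group means were taken away 0.72, 0.70 and 0.08.

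For each member the genes with the most similar profile were found among 4028 other varying genes by Pearson's r over the 8 arrays, and with so many genes and so few arrays high values arise readily. For Slc2a4 they were Fzd5, Zfp703 and Psph (r = 0.98, 0.97 and 0.97), and for Pik3r1 Cth, Slc1a3 and Gins4 (0.98, 0.95 and 0.95). Hk2 was closest to Snrk, Per2 and Jkamp (0.98, 0.97 and 0.97), and Slc2a1 to Mmachc, Ide and Ppa1 (0.96, 0.93 and 0.93). For Irs1 the closest were Morc4, Dyrk2 and Purg (0.99, 0.95 and 0.94), and for Irs2 Ube2g2, Arl2bp and Dus1l (0.97, 0.91 and 0.90). Insr was closest to Rpl27, Atp8b1 and Rps29 (0.96, 0.94 and 0.93), and Akt2 (1424480_s_at) to Nudt4, Hdac6 and Itgb5, with the lowest values (0.87, 0.86 and 0.86). With the group means taken away the closest gene was Nudt6 for Slc2a4 (0.97), Exoc4 for Pik3r1 (0.95), Chmp1b for Slc2a1 (0.98), Pdlim1 for Irs2 (0.98), Brd2 for Insr (0.98) and Phtf2 for Akt2 (0.92). Morc4 was again the closest to Irs1 (0.99), and for Hk2 it was 0610030E20Rik (0.98).

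Around the members, 78 other genes of the pathway were listed by role, and 71 had a probe set with a single symbol. Over all probe sets 1 of the 71 genes was called higher and 0 lower, and among varying probe sets only 3 were called higher and 0 lower. Those 3 were Sos1, Tbc1d4 and Sort1, out of 31 genes with a varying probe set. Over the table these fits called 0.668% and 18.7% of probe sets, 0.435% and 8.14% higher and 0.233% and 10.5% lower. The lists count genes and these shares count probe sets, and whether the lists differ from the table was not tested. Over all varying probe sets of these lists, 16 of 45 had positive differences and the median was -0.07 log2, close to that of the table.

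Among receptors and adaptors (11 genes measured), Sos1 rose. It encodes the exchange factor that links receptor adaptors to RAS, a branch apart from glucose uptake. At 1434389_at it stood at 8.81, 8.69, 8.84 and 8.76 in LPA4-KO and 8.47, 8.48, 8.45 and 8.31 in WT mice, a difference of 0.35 ± 0.05 (adjusted p = 0.0493). The groups were well apart, but the call over all probe sets lies at the threshold and was lost without any 1 of the 8 arrays (adjusted p from 0.076 to 0.13). Among varying probe sets only, it held without each array in turn (adjusted p from 0.019 to 0.047). That set was chosen by the range over all 8 arrays, with the genotype difference in it. The left-out array thus helped to choose the set, and these fits are no separate check of the call. The other Sos1 probe sets were nearly constant. Igf1r, the receptor for insulin-like growth factor, differed by -0.21 ± 0.05 at 1428967_at (adjusted p = 0.12) and -0.26 ± 0.10 at 1452982_at (adjusted p = 0.27).

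In the arm of phosphoinositide 3-kinase and AKT (17 genes), no gene was called over all probe sets. Tbc1d4, the AKT substrate that holds GLUT4 vesicles inside the cell until it is phosphorylated, stood at 9.13, 9.17, 9.17 and 8.97 in LPA4-KO and 8.92, 8.60, 8.78 and 8.76 in WT mice at 1435292_at. The groups did not overlap, and the difference was 0.34 ± 0.08 (adjusted p = 0.11, and 0.027 among varying probe sets only). The second call was lost without any of LPA4-KO replicates 1, 2 and 3 or WT replicates 2, 3 and 4 (adjusted p from 0.051 to 0.068). At its other varying probe set, 1455903_at, the groups overlapped (0.23 ± 0.17, adjusted p = 0.58). Tbc1d1, its close relative, was nearly constant in all its probe sets. Of its 16 varying probe sets of this arm 7 were positive and 9 negative, a split that changed with scaling, to between 7 and 10 positive.

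In the mTOR branch (8 genes) none passed. The values of smallest p at varying probe sets were -0.33 ± 0.12 for Rictor, a subunit of the complex that also phosphorylates AKT (1429810_at, adjusted p = 0.25), and 0.28 ± 0.11 for Eif4ebp1, a repressor of translation (1417563_at, adjusted p = 0.29). All other probe sets of both genes were nearly constant. These included the ones with the highest mean, 1435698_at of Rictor near 8.05 and 1417562_at of Eif4ebp1 near 11.27 in both groups.

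Among 12 inhibitors of insulin action none passed in either fit, while all 11 varying probe sets, of 7 genes, had negative differences, with a median of -0.25 log2. The 11 were negative after each scaling tried. Txnip, which lowers glucose uptake, stood at 10.32, 10.53, 10.63 and 10.62 in LPA4-KO and 10.77, 10.70, 10.72 and 10.78 in WT mice at 1415997_at. The groups did not overlap (-0.22 ± 0.07, adjusted p = 0.22, and 0.073 among varying probe sets only), but at 1415996_at they did (-0.15 ± 0.09, adjusted p = 0.46). Its relative Arrdc4 differed by -0.22 ± 0.08 (1424759_at, adjusted p = 0.25) and -0.25 ± 0.12 (1426818_at, adjusted p = 0.37). Probe sets of 1 gene are not independent, and this count was not tested.

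In the traffic of GLUT4 vesicles (12 genes), no gene was called over all probe sets. Sort1 encodes sortilin, a sorting receptor of GLUT4 vesicles, and stood at 10.09, 9.99, 10.02 and 9.92 in LPA4-KO and 9.53, 9.55, 9.69 and 9.79 in WT mice at 1423362_at. The difference of 0.36 ± 0.07 had an adjusted p of 0.081 over all probe sets and 0.018 among varying probe sets only, and the second call held without each array in turn (adjusted p from 0.022 to 0.049). As for Sos1, the left-out array had helped to choose the varying set, so these fits are no separate check. At 1450955_s_at the difference was 0.15 ± 0.06 (adjusted p = 0.31), with groups that overlapped. The gene with the next smallest p, Aspscr1, which encodes the tether of these vesicles, was nearly constant.

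Among 11 other glucose transporters and hexokinases 1 gene varied, Slc2a3, which encodes GLUT3. Its means were higher in LPA4-KO fat at 1437052_s_at (0.39 ± 0.17, adjusted p = 0.32) and at 1455898_x_at (0.36 ± 0.21, adjusted p = 0.47) and did not pass. The smallest p in this list belonged to Hk1 and Slc2a13, whose probe sets were nearly constant.

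**Figure D4:**
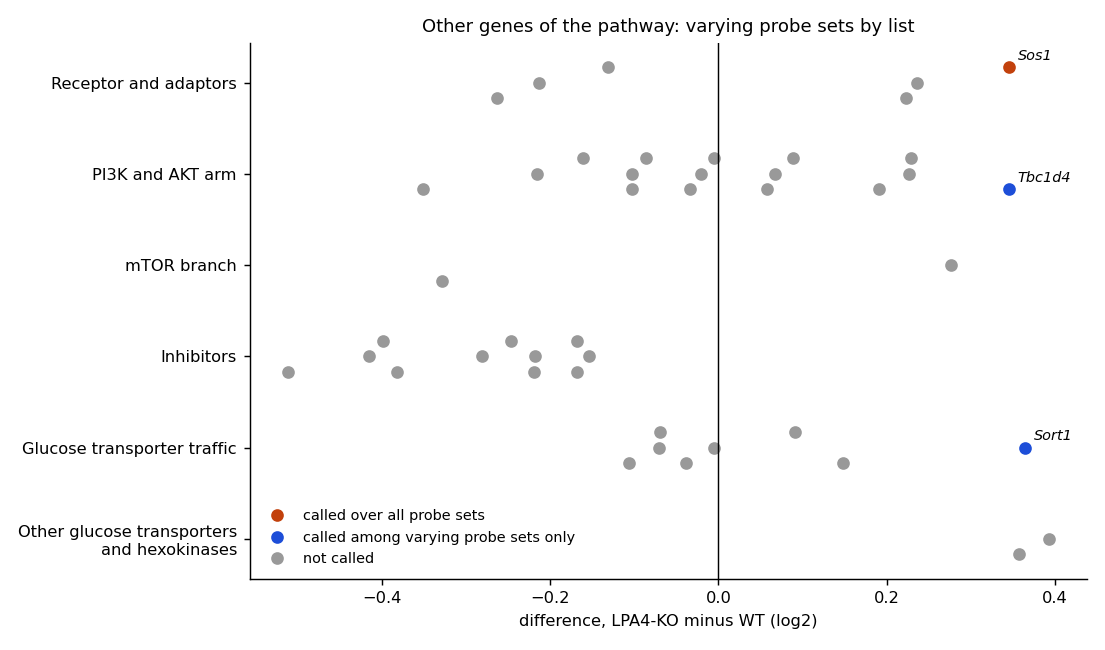
Difference between LPA4-KO and WT fat (log2, horizontal axis) for the 45 varying probe sets of the 6 lists of other pathway genes; each point is a probe set, and points are spread vertically only to be seen. Sos1, Tbc1d4 and Sort1 lie between 0.34 and 0.36, and all 11 inhibitor probe sets lie below 0.

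Markers of the cell types that the pad can hold were read beside these genes. Unlike the members, each marker was taken at 1 probe set alone, and any others of the same gene were not examined. At the probe sets read, Dpt was the only marker called in the fit over all probe sets. The pad carried its adipocyte markers, with Adipoq near 13.83 and Fabp4 near 13.40 in both groups, the first above 99.99% and the second above 99.96% of probe sets and both nearly constant. The mean level of 6 adipocyte markers overlapped between groups, from 12.30 to 12.36 in LPA4-KO and 12.15 to 12.40 in WT mice, and 0 of 6 were called in either fit. The 4 adipocyte markers that varied were Retn (0.18 ± 0.06, adjusted p = 0.20, groups that did not overlap), Cidec (0.17 ± 0.07, adjusted p = 0.32), Lipe (0.12 ± 0.12, adjusted p = 0.70) and Lep (-0.32 ± 0.36, adjusted p = 0.74), and the 2 nearly constant ones add no spread to the mean. All 6 progenitor and fibroblast markers had negative differences, with a mean level from 9.20 to 9.50 in LPA4-KO and 9.60 to 9.89 in WT mice (Dpt called lower over all probe sets, 3 called among varying only). The mean level of 5 endothelial markers ran from 8.58 to 8.73 against 8.76 to 8.83, with 3 of them nearly constant, 2 negative and 0 called in either fit. Mesothelial markers (5 of 5 negative) ran from 7.72 to 8.30 against 8.22 to 9.11, macrophage markers (5 of 5 varying negative) from 9.76 to 9.92 against 9.90 to 10.11, and smooth muscle markers from 8.15 to 8.27 against 8.26 to 8.67, where Acta2 differed by -1.31 ± 0.21 (adjusted p = 0.063) and 2 of 3 varying markers were positive. Among varying probe sets only, 2 mesothelial markers, 1 macrophage marker and Acta2 were called. The red cell list had 2 measured markers, of which Alas2 was higher in LPA4-KO fat among varying probe sets only (0.48 ± 0.13, adjusted p = 0.15 over all probe sets and 0.029 among varying only), with a list level from 7.18 to 7.40 against 6.96 to 7.17. T cell and epididymis markers were nearly constant at the probe sets read, as was Ucp1 of brown fat. So were Ckm, Myh4 and Mylpf of skeletal muscle, a tissue that also expresses Slc2a4 and Hk2. Acta1, the remaining skeletal muscle marker, had a wide spread and was not called, with a list level from 6.90 to 7.38 in LPA4-KO and 7.22 to 7.44 in WT mice. B cell markers overlapped between groups, from 6.00 to 6.35 against 6.08 to 6.59, as did brown fat markers, from 6.19 to 6.49 against 6.19 to 6.25. The part of these values in the differences of the members was not tested.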

How the data were processed

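Total RNA from epididymal white adipose tissue of 8 mice was labelled with a 3′ in vitro transcription kit and read on Affymetrix arrays, per the labels' protocols. The deposited values are 1 log2 value per probe set and array. The submitters' processing notes name R 2.14.0. How background was corrected, arrays were normalized and probes were summarised is not given in the sources used here, nor is the log base, and the log2 scale was inferred from the range of 5.27 to 14.07. Scanner files were not analysed here, so signal above background was not tested, and precision is limited by the array number.

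Groups and replicate numbers came from the sample titles, which call the replicates biological. Probe sets were named by the platform annotation. Of 45101, 64 were controls and left out, 932 had several symbols and 9160 none listed, and these were fitted but not named. All 8 members matched the RefSeq table of GRCm38.p6 by Entrez number. Limma 3.58.1 in R 4.3.3 compared the groups (lmFit, eBayes with a trend), with Benjamini-Hochberg adjustment over 45037 probe sets and no block. Single probe sets were also tested with an exact two-sided permutation test.

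The members, lists, alternatives and the rule for named genes were chosen with earlier results of these data known. The rule names all members, called genes of the lists, the 2 genes of smallest p in each list, and for each member the 3 genes of most similar profile and the 1 most similar after removal of group means. Other genes given with values (Slc2a3 and the marker genes) were chosen after their values were seen. The limit of 0.1 log2 for varying probe sets came from the earlier results. The steps were tested on simulated data. Alternatives were scaling, filters, variance models, array weights, the replicate block, each array left out, 1 probe set per gene and another threshold. Combinations with the varying probe sets were added after seeing the data.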

Additional observations from a re-analysis of the deposited data

Results flagged for a closer look

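Within groups of 4 arrays, an array was marked when its gap to the nearest array, over the group's range, exceeded Dixon's 95% critical value. Of 44 groups of values examined, 3 had such an array, and chance alone marks about 1 in 20. At Slc2a4 probe set 1415959_at, LPA4-KO replicate 1 was at 8.38, above the next LPA4-KO array at 7.96. At Sos1 1434389_at, WT replicate 4 was at 8.31, below the next WT array at 8.45. At Eif4ebp1 1417563_at, WT replicate 2 was at 7.66, below the next WT array at 7.99. WT replicate 2 was also the lowest array of all at the probe sets of Pik3r1 and Slc2a4 and at Hk2, where it was not marked.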

How the results depend on the processing

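The member calls depended on which probe sets were fitted and on scaling. Against 0 over all probe sets, 12 member probe sets were called higher and 1 lower after quantile normalization. That fit called 24945 of 45037 probe sets higher and 1330 lower. Among varying probe sets only, 5 members were called higher, where 617 of 7584 were higher and 800 lower. There 7 were higher after quantile normalization (868 higher and 514 lower over the varying probe sets) and 6 after median centring (793 and 634). With the replicate block 3 were higher (387 and 583). With 1 array left out the varying fit gave 0 to 5 members higher, where 234 to 699 varying probe sets were higher and 296 to 809 lower. Over all probe sets the member counts were 0 with each array left out, with median centring, with the replicate block and with the filter on level, both variance models, array weights, 1 probe set per gene and the threshold of 0.1. For the pathway lists, against 1 gene higher and 0 lower, quantile normalization gave 44 and 3, the threshold of 0.1 gave 2 and 1, and robust estimation, the replicate block and leaving out any 1 array gave 0 higher. Among varying probe sets 3 were higher (3 with median centring, 4 with quantile normalization, 3 higher and 2 lower with the replicate block, and 2 to 3 higher and 0 to 2 lower with 1 array left out). The count over the whole table, 301, became 3 with the replicate block, 0 to 112 with 1 array left out, 26275 after quantile normalization, 595 above the median level, 1417 among varying probe sets only, 458 with array weights and 1143 at the threshold of 0.1. The cause was not tested, except that the filters leave fewer probe sets to adjust over and leaving out an array leaves fewer mice. Same-numbered arrays deviated from their group means with correlations of 0.06, 0.08, 0.27 and -0.19, and 1 of 4 LPA4-KO arrays correlated best with its own number. So few values cannot show whether the numbers pair the mice. Of 428 alternative values of varying member probe sets 2 changed sign, both Irs2 without LPA4-KO replicate 4 (-0.059), over all probe sets and among varying ones; with 1 array left out Irs2 ran from -0.059 to 0.18.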
